A study of Mus musculus with 2 samples.

Results

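TOBF1 peaks were described at 7 genes of the Wnt pathway in mouse embryonic stem (ES) cells. These were the TCF/LEF transcription factor genes Lef1, Tcf7, Tcf7l1 and Tcf7l2, the beta-catenin gene Ctnnb1, and the Wnt target genes Axin2 and Lgr5. They were taken as a named set, and a peak was assigned to a gene when its midpoint lay in the gene's RefSeq span or within 50 kb of it. This gave 8 of the 12181 peaks of the list, at 4 of the 7 genes, out of 21887 protein-coding genes on chromosomes 1 to 19, X and Y. The series holds 1 ChIP-Seq library and 1 input library, both from R1/E ES cells grown in serum with LIF and carrying TOBF1 (A830080D01Rik, listed by RefSeq as Bclaf3) tagged on a bacterial artificial chromosome (BAC). For the ChIP library, chromatin fixed with formaldehyde and DSG was precipitated with an anti-GFP antibody. The input library was made without antibody and its file was not analysed here. The labels do not say what drives the tagged copy, and no library from untagged cells was used. With 1 ChIP library there is no replicate error on any value below, and no test of a difference was made.

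In the Wnt pathway, secreted Wnt proteins bind Frizzled receptors and their Lrp co-receptors and stop a complex of Apc, Axin and Gsk3 from marking beta-catenin for destruction. Beta-catenin then enters the nucleus and joins TCF/LEF factors, which bind DNA through an HMG box and otherwise recruit Groucho (Tle) corepressors. In mouse ES cells Wnt signalling favours self-renewal, and Tcf7l1, formerly called Tcf3, is known there mainly as a repressor of pluripotency genes whose action beta-catenin relieves.

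All 8 peaks lay at the 4 longest genes of the set. Lef1 had 4 peaks, Lgr5 had 2, and Tcf7l1 and Tcf7l2 had 1 each, while Tcf7, Ctnnb1 and Axin2 had none in the gene or within 50 kb. Inside, outside and end refer here to the span and the ends of the Wnt gene itself, whatever other genes lie around it. Of the 8 peaks, 4 lay inside their gene at more than 1 kb from both of its ends, 4 lay outside it, and 0 lay within 1 kb of its ends. Of the 4 outside peaks, 3 lay in another gene: those at Lef1 with scores of 87.7 and 6.15 in the lncRNA gene Gm36603, and that at Lgr5 in Zfc3h1. Each of the 4 genes with peaks held exactly 1 of the inside peaks. The scores, which are the authors' own values and stand here for −log10 q, lay between 5.64 and 87.7 at these genes with a median of 16.8, against a median of 9.97 over the whole list (quartiles 5.93 and 18.99). Of the 8 peaks, 5 were at or above the median of the list and 3 were in its highest quartile, 1 each at Lef1, Lgr5 and Tcf7l1.

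**Figure D1:**
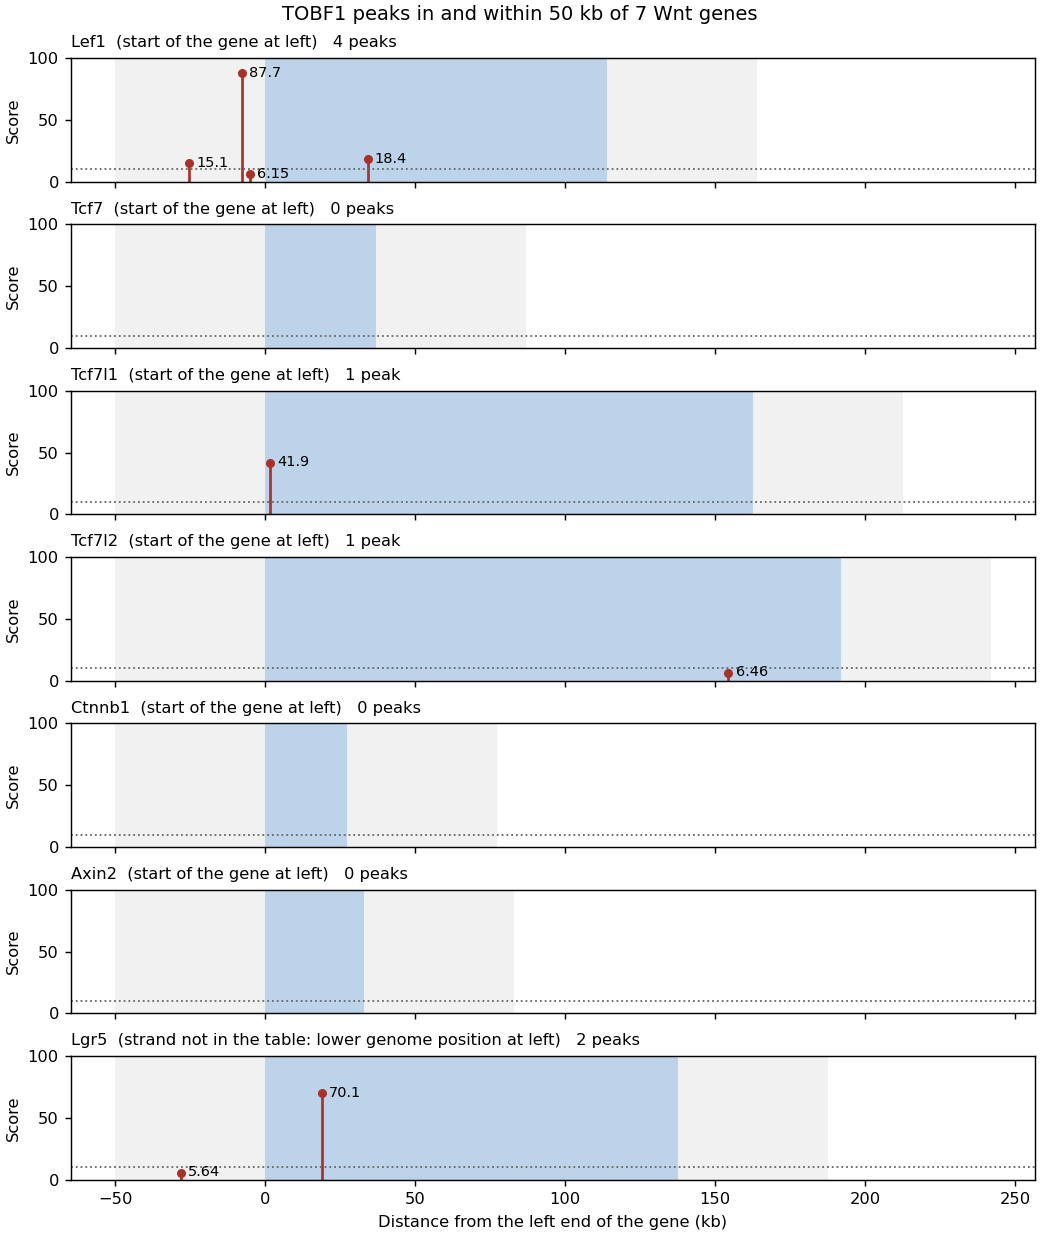
TOBF1 peaks at the 7 genes. Each panel shows 1 gene (blue) with 50 kb on each side (grey), the horizontal axis gives the distance in kb from the left end of the gene, and each red line is a peak at its midpoint with its score on the vertical axis; the dotted line is the median score of the list, 9.97. Tcf7, Ctnnb1 and Axin2 have no peak, and the highest scores are 87.7 upstream of Lef1, 70.1 inside Lgr5 and 41.9 near the start of Tcf7l1.

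Sequence was available for the 250 bases upstream of listed transcription starts, from RefSeq on the GRCm38.p6 assembly, which has the positions of mm10. It covered 6 of the 7 genes with 12 starts; Lgr5 had no entry. The 4 stretches below are shown because they are the starts that the peaks are described against: the first start of Lef1 and of Tcf7l1, and an internal start each of Lef1 and Tcf7l2. Capitals mark a TCF/LEF motif, searched on both strands in 4 spellings that share their first 5 letters. These were CTTTGAT, held by 3.21% of all 32851 upstream stretches in the table, CTTTGAA, held by 4.46%, CTTTGTT, held by 5.03%, and CTTTGTA, held by 3.2%, with at least 1 of them in 14.8%.
Lef1 first start (chr3:131110047-131110296, plus strand): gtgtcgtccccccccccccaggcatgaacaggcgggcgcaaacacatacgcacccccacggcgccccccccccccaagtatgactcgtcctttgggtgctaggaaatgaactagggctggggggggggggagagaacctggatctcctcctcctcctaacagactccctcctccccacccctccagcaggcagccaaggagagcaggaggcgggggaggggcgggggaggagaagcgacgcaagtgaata
Lef1 internal start (chr3:131156044-131156293, plus strand): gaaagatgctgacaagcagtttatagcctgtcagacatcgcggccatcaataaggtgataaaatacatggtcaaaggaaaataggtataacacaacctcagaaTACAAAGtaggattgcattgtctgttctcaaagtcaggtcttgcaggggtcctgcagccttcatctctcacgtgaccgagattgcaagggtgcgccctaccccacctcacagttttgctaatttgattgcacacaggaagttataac
Tcf7l1 start (chr6:72789046-72789295, minus strand): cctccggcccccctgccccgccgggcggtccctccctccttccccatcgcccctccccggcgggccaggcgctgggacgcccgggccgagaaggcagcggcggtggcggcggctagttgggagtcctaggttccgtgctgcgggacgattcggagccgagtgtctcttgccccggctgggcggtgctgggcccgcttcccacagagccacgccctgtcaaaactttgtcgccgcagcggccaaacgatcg
Tcf7l2 internal start (chr19:55895071-55895320, plus strand): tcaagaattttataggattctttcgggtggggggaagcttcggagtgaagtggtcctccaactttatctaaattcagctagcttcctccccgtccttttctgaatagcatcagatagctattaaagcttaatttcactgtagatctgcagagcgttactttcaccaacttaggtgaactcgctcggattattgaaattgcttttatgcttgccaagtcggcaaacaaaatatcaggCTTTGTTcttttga
Of the 12 upstream stretches, 2 held a motif, those of the 2 internal starts shown. The one of Lef1 had CTTTGTA on the minus strand. The one of Tcf7l2 had CTTTGTT on the plus strand, beginning 14 bases upstream of the start. Against the 14.8% of all stretches, and 13.2% of the 21263 at protein-coding genes, 2 of 12 is 16.7%. Some of the 12 overlap each other, at Lef1 and at Ctnnb1, so they are not all separate sequences. The 2 stretches with a motif were also lower in G and C (44.8% at Lef1 and 40.8% at Tcf7l2) than the first starts of Lef1 (66.4%) and Tcf7l1 (73.6%). The median over all stretches was 52.4%. Lef1 has further listed starts inside the gene, at 131110323 and 131112791. Their stretches held no motif and had 66.4% and 50.8% G and C. A match is a description of the letters, and no peak overlapped any of these upstream stretches.

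Lef1 encodes a TCF/LEF factor that mostly activates Wnt targets together with beta-catenin. The gene lies on the plus strand of chromosome 3 (mm10, 131110297 to 131224357) and is 114.1 kb long. Its strongest peak, at 131102286 to 131102589, lay 7.86 kb upstream of the first start and had a score of 87.7, rank 112 of the 12181 peaks (top 0.919%). A weaker peak lay 5.06 kb upstream (131105136 to 131105340, score 6.15) and another 25.5 kb upstream (131084748 to 131084944, score 15.1). The inside peak lay 34.1 kb downstream of the first start (131144326 to 131144544, score 18.4). The score of the strongest peak was thus 4.76 times that of the next, on the −log10 scale, and 3 of the 4 peaks lay upstream within 20.4 kb of one another.

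The upstream side of Lef1 also holds a lncRNA gene, Gm36603, on the minus strand (131101639 to 131107978), whose start is 2.32 kb from that of Lef1. The strongest Lef1 peak lay in this lncRNA gene, 798 bp from its lower end, which is its far end from Lef1, and the peak with a score of 6.15 lay in it as well. No other protein-coding gene was nearer to any of the 4 peaks than Lef1, and none of the 4 lay on the side of Hadh, the next gene, 9.06 kb above Lef1. The inside peak was 11.9 kb from the nearest listed start of Lef1, the internal one shown above.

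Tcf7l1 lies on the minus strand of chromosome 6 (72626371 to 72789045, 162.7 kb). Its only peak, at 72787436 to 72787659, had a score of 41.9 (rank 913, top 7.5%) and lay inside the gene 1498 bp downstream of its start. Of the 8 peaks it was the closest to an end of its own gene, and it counts as a gene-end peak once the limit is widened from 1 kb to 5 kb. It also stood far from other peaks: the next peak on the chromosome was 950.5 kb away, where the median distance to the next peak was 35.8 kb over all peaks and 0.366% of peaks had a larger one.

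Tcf7l2, which encodes a TCF factor known for its part in the intestine and in glucose control, lies on the plus strand of chromosome 19 (55741797 to 55933659) and is the longest gene of the set at 191.9 kb. Its only peak had a score of 6.46 (55896068 to 55896357, rank 8767), below the median of the list, and lay 154.4 kb downstream of the gene's lower end. That position was 891 bp downstream of the internal start shown above, whose upstream stretch holds the CTTTGTT motif. Among the 6 genes with a listed start this was the 1 gene with a peak within 1 kb of such a start. Over all protein-coding genes with a listed start the share was 1.57%, and 2.63% of all peaks lay within 1 kb of a listed start of a protein-coding gene. The 6 genes have 12 listed starts, where 17492 protein-coding genes have 21263, and the share of 1.57% does not allow for this. The count by listed starts was added after the data were seen.

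Lgr5 encodes a receptor for R-spondins, which strengthen Wnt signals, and is itself a Wnt target known as a marker of intestinal stem cells. It lies on chromosome 10 (115450314 to 115587780, 137.5 kb), and its strand is not in the table used here. Its inside peak, at 115469080 to 115469490, had a score of 70.1 (rank 259, top 2.13%) and lay 18.97 kb from the lower end. With 411 bp it was the widest of the 8 peaks, and 8.19% of all peaks were wider. The other peak (115422139 to 115422319, score 5.64) lay 28.1 kb below the lower end and inside the neighbouring gene Zfc3h1, so it was nearer to that gene than to Lgr5. Of the 8 peaks it was the only one for which another protein-coding gene was nearer.

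**Figure D2:**
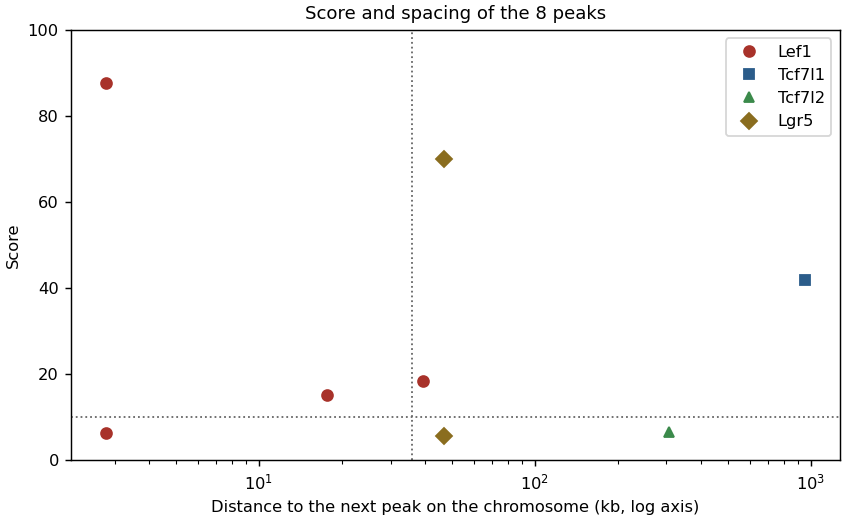
Score against spacing for the 8 peaks. The horizontal axis (log) gives the distance in kb from a peak's midpoint to that of the next peak on its chromosome, the vertical axis the score, symbols mark the gene, and dotted lines mark the medians over all peaks, 35.8 kb and 9.97. The Tcf7l1 peak stands alone at 950.5 kb, and the strongest and the weakest Lef1 peak are 2.80 kb apart.

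Tcf7, Ctnnb1 and Axin2 had no peak, and none came within reach with 100 kb on each side. Tcf7 encodes a factor known best from T cells and lies on chromosome 11 (52246527 to 52283383, 36.9 kb); its nearest peaks were 512.1 kb below the gene (score 4.43) and 464.6 kb above it (score 6.69). Ctnnb1, whose product beta-catenin carries the Wnt signal into the nucleus, lies on chromosome 9 (120933400 to 120960507, 27.1 kb), with its nearest peaks 242.7 kb below (score 5.08) and 384.1 kb above (score 31.3). Axin2, a scaffold of the destruction complex that Wnt signals induce as negative feedback, lies on chromosome 11 (108917828 to 108950783, 33.0 kb). Its nearest peaks were 493.6 kb below (score 40.2) and 159.2 kb above (score 1.95). The strong distant peak below Axin2 was 0.978 kb from another gene, Cep112, and the one above Ctnnb1 lay inside Trak1. A peak that is not in the list may still have signal under the threshold of the peak call, and the number of reads is unknown.

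Gene length sets how many peaks a gene's window can hold, so each count was read against genes of like length. Over all protein-coding genes, 42% had a peak in the gene or within 50 kb, beside 4 of 7 here. The share rose with length, from 33.6% of genes under 20 kb to 43.5% at 20 to 50 kb, 51.8% at 50 to 100 kb, 64.6% at 100 to 250 kb and 81.3% at 250 kb or more. Lef1, Tcf7l1, Tcf7l2 and Lgr5 are in the class of 100 to 250 kb, and Tcf7, Ctnnb1 and Axin2 in that of 20 to 50 kb. The class shares of the 7 genes add up to 3.89 genes with a peak, where 4 were found, and the class means add up to 7.91 peaks, where 8 were found. The number of genes and of peaks was therefore near the background for genes of these lengths. By length of sequence, the 7 windows held 0.57 peaks per 100 kb, against 0.573 over the windows of all protein-coding genes and 0.444 over the chromosomes.

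Inside peaks were found at 4 of the 7 genes, beside 12.7% of all protein-coding genes. By length class the share was 2.17%, 11.7%, 26%, 44.5% and 72.6%, from the shortest to the longest. In the class of 100 to 250 kb, at 44.5%, 4 of 4 genes of the set had one. In the class of 20 to 50 kb, at 11.7%, 0 of 3 had one. The class shares add up to 2.13 genes. By length of sequence, leaving out 1 kb at each end, the 7 genes held 0.581 inside peaks per 100 kb. That rate was 0.524 in the class of 100 to 250 kb, 0.517 in that of 20 to 50 kb and 0.486 over all protein-coding genes. A peak within 1 kb of a gene end was found at 2.67% of all protein-coding genes and at 0 of 7 here.

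**Figure D3:**
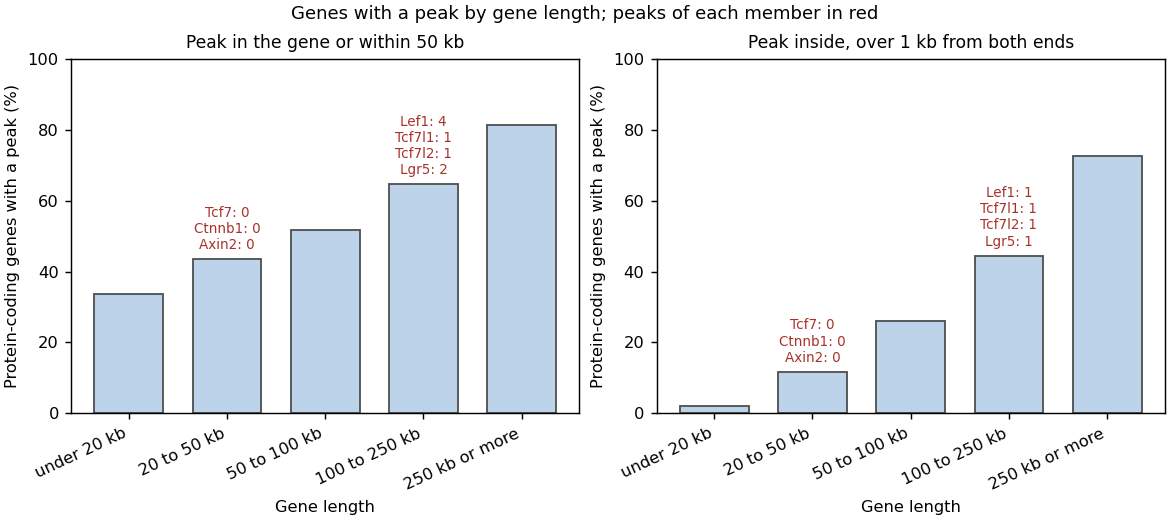
Share of protein-coding genes with a TOBF1 peak (vertical axis, %) in 5 classes of gene length, for peaks in the gene or within 50 kb (left) and for peaks inside the gene over 1 kb from both ends (right). The number of peaks at each of the 7 genes stands in red above the bar of its class; the left bars rise from 33.6% to 81.3%.

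By the score of their highest peak, some of these genes stood further from the background than by their number of peaks. This score is the highest in the window and was not adjusted for the number of peaks there. That of Lef1 belongs to a peak in Gm36603. Of the 1707 genes of the length class of Lef1, 9.55% had at least as many peaks as its 4, Lef1 included. A peak with a score at least that of its strongest was found in the windows of 1.35% of the genes of that class and 0.685% of all protein-coding genes. For Lgr5 these shares were 2.87% and 1.54%, and for Tcf7l1 10.7% and 5.06%. For Tcf7l2 they were 56.8% and 35.1%, so a peak with such a score was common at genes of its length. Counting only peaks that reached the list's median score, 3 of the 7 genes had one within this reach, beside 26.9% of all protein-coding genes. All 3 are in the class of 100 to 250 kb. The share of that class was not computed at this score, so this comparison does not allow for gene length. Genes of the length class of Lef1 with the most inside peaks were Adam23 (16), Tns3 (11) and the pluripotency factor gene Esrrb (9), where Lef1 had 1.

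A list of 99 other Wnt pathway genes, all of them matched in the table, was counted by role in the same way. Of these, 43 had a peak in the gene or within 50 kb (43.4%, beside 42% of all protein-coding genes), and the shares of their length classes add up to 43.5 genes. Inside peaks were found at 21 of the 99 (beside 12.7% of all protein-coding genes, and 15.0 genes from the length classes) and gene-end peaks at 3 (beside 2.67%, and 2.59 genes). For 31 of the 43, no protein-coding gene was nearer to the highest peak. The highest scores of this list were below those of Lef1 and Lgr5: the corepressor gene Tle1 had 58.0 and Jup, which encodes the beta-catenin relative plakoglobin, had 43.8, both inside the gene. The role counts below stand beside the number that the length classes add up to, and none was tested. The nuclear cofactors had a peak at 8 of 14 genes (6.46 from the length classes), among them also Tle4 (12.0) and Chd8 (11.7), a chromatin remodeller that binds beta-catenin.

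Ligand genes had a peak at 6 of 19 (7.78 from the length classes), with Wnt10a (25.6), Wnt16 (18.4), Wnt8a (12.5) and Wnt5a (4.69) as those nearest to their highest peak. Wnt6 is counted among the 6 only through the peak of Wnt10a, which lay 39.8 kb from Wnt6. Receptor genes had a peak at 8 of 15 (6.91), led by the Frizzled genes Fzd8 (25.6), Fzd7 (23.2), Fzd5 (23.0) and Fzd3 (16.5). Among R-spondins and their receptors it was 3 of 8 (4.36), and Lgr4, the relative of Lgr5, had the highest score (31.3). Extracellular inhibitors had a peak at 5 of 14 (5.55) and an inside peak at 0, where the length classes of these mostly short genes give 1.305. Dkk1 (34.8), Sfrp2 (34.6), Notum (30.6) and Dkk2 (4.15) had theirs 40.3 kb, 13.0 kb, 2.69 kb and 22.6 kb outside the gene. Genes of cytoplasmic signalling and the destruction complex had one at 5 of 13 (6.27). Of those nearest to their highest peak, Tnks (24.6), whose product marks Axin for degradation, stood above Gsk3b (7.07), Btrc (2.95) and Apc (1.63). The highest peak near Axin1 (7.74) was nearer to Pgap6. Other Wnt target genes had a peak at 6 of 14 (5.35), with Myc (37.0), Tnfrsf19 (33.4) and Sp8 (5.98) as those nearest to their highest peak. Both genes of Wnt secretion had one (2 of 2, 0.854), Wls (17.2) inside the gene and Porcn, named after its value was seen, at a gene end (10.8); the highest peak near Porcn (12.2) was nearer to Ftsj1.

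**Figure D4:**
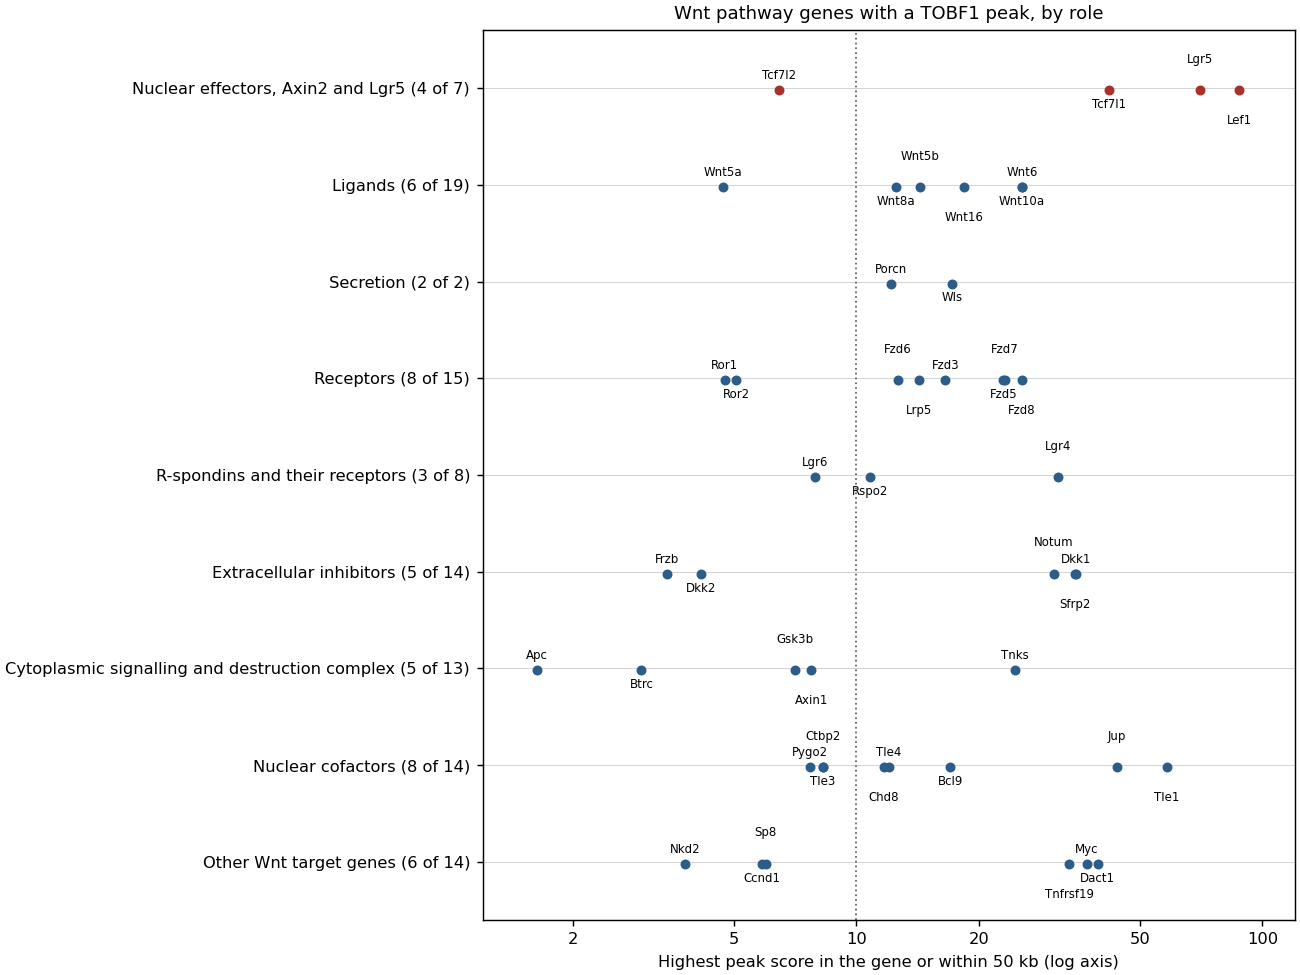
Highest TOBF1 peak score in the gene or within 50 kb (horizontal log axis) for every Wnt pathway gene that had a peak, by role; red points are the 4 with a peak of the 7 genes described above, blue points the 43 with a peak of the other 99, and the count of genes with a peak of those in the role stands beside each name. The dotted line is the median score of the list, 9.97; Lef1 at 87.7 and Lgr5 at 70.1 lie to the right of all blue points, where Tle1 is highest at 58.0.

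No table of exons or introns was used, so whether an inside peak lies in an intron is not given here. No expression values were used either.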

How the data were processed

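ChIP-Seq for BAC-tagged TOBF1 in R1/E mouse ES cells gave 1 peak list. The authors' deposited score was taken as −log10 q: its lowest value, 1.30, corresponds to a q-value of 0.0497. It depends on depth and local background and was used only within the list. Per the submitters' processing notes, cutadapt, Bowtie2, MACS2 and bedtools were used on mm10, with no versions or settings; whether the input was the control is not given in the sources used. Sequencing depth is unknown.

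Gene spans and upstream sequences came from RefSeq tables of GRCm38.p6. Peaks were placed by their midpoint, with 50 kb added to each gene and 1 kb as the limit of a gene end. The 169 peaks on other scaffolds were left out of counts by gene. Counts were set beside all protein-coding genes and 5 length classes, and no test was run. The genes and lists were chosen with earlier results of these data known. In the other Wnt genes, up to 4 per role were named, those with the highest peak that was nearest to them. For genes like Lef1, the 3 of its length class with the most inside peaks were named. Alternatives were a score minimum at the median, flanks of 10, 20 and 100 kb, overlap in place of midpoints, merged peaks, and gene ends of 0.5 kb and 5 kb; listed starts were added after the data were seen. Counting was tested on simulated data. Python 3.11.15, NumPy 2.4.6, pandas 2.3.3 and matplotlib 3.10.9 were used.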

Additional observations from a re-analysis of the deposited data

How the results depend on the processing

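Of the 59 values computed under alternatives for the counts and the median score, 48 stayed within 1.5 times the reported value. Part of these 48 could not have moved, since the flank does not affect the numbers of inside and gene-end peaks. These numbers also repeat those of genes with such peaks, and a count that stayed at 0 was scored as unchanged. The tally is therefore no measure of robustness. The number of the 7 genes with a peak was 4 with flanks of 10, 20 and 100 kb, with overlap and with merged peaks, while the share of all protein-coding genes moved from 21.6% at 10 kb to 59% at 100 kb. Each of the 4 genes holds an inside peak, so a narrower flank could not lower this count. Shares by length class were not computed at these flanks, so the comparison with 21.6% does not allow for gene length. With only peaks that reached the list's median score, 5 of the 8 peaks were left, with a median score of 41.9. Of these 5, 2 lay outside their Wnt gene. At this minimum 27 of the 99 other Wnt genes had a peak, beside 26.9% of all protein-coding genes, and Tcf7l2 had none. Without a score minimum, 29 of the 99 had a peak with a flank of 10 kb, beside 21.6% of all protein-coding genes. With 20 kb it was 35 of 99, beside 27.5%, and with 100 kb 59 of 99, beside 59%. These shares do not allow for gene length. With this score minimum, and with flanks of 10 and 20 kb, Lgr5 had 1 peak in place of 2. With flanks of 10 kb or of 20 kb, 2 peaks were left outside their Wnt gene, both at Lef1 and in Gm36603, and the median score was 30.1. The count at gene ends was 1 gene and 1 peak with a limit of 5 kb (Tcf7l1; 8.97% of all protein-coding genes), and 1 gene within 1 kb of a listed start (Tcf7l2), chosen after the data were seen. No paired analysis was possible because there is 1 library per group. With so few peaks, each of these values can move by a single peak, and the depth that limits which peaks were called is unknown.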

Other observations

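Some other Wnt genes held as many peaks as Lef1 or more, in or around a shorter gene. Fzd5, a Frizzled receptor gene of 7.19 kb, had 6 peaks in the gene or within 50 kb, a number that 1.49% of genes under 20 kb reach. For 2 of these, with scores of 2.42 and 3.57, another gene, Ccnyl1, was nearer. All 6 lay no more than 4.44 kb outside the gene, with scores of 2.42, 3.57, 10.6, 6.18, 3.80 and 23.0 in order of position, and 2 of them lay within 1 kb of a gene end. Fzd8, of 3.35 kb, had 4 peaks, a number that 3.3% of genes under 20 kb reach, with the highest (25.6) inside the gene. Lgr4 had 5 peaks, 4 of them inside the gene, a number that 2.23% of genes of 50 to 100 kb reach. The 2 strongest Lgr4 peaks had scores of 29.5 and 31.3 and lay 24.7 kb and 25.7 kb from the nearest gene end. Its relative Lgr5 had a single inside peak, with a score of 70.1. Myc had 4 peaks and all were outside the gene; those of 37.0 and 35.8 lay 6.21 kb and 20.6 kb away. These genes were singled out after their values were seen, and neighbouring peaks were not merged for these counts.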
